A study of Rattus norvegicus with 48 samples.

Results

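miR-34a is 1 of the 143 miRNAs in the deposited table of rat liver, and it was taken as the single row named rno-miR-34a in all 48 animals. The animals were male Sprague-Dawley rats, 8 to 14 weeks old, pair-fed for 6 to 8 weeks on a liquid diet holding ethanol at 36% of calories (EtOH) or an equal-calorie carbohydrate control (CHO). Every animal underwent or was about to undergo 70% partial hepatectomy (PHx), which removes the left lateral and medial lobes, and whole liver tissue was assayed on the NanoString nCounter, where a barcoded probe is counted per miRNA. On each diet, livers of untreated animals were taken 0, 6, 24 or 72 h after PHx, and livers of animals given saline or AM21 (an antisense inhibitor of miR-21, 7.5 mg/kg, first injected 72 h before surgery) were taken at 0 or 24 h. This made 16 groups of 3 animals each. The sample labels carry a leading number, here called a set, and do not say what it marks. Animals of 0 and 24 h belong to sets 1 to 3, and those of 6 and 72 h to set 4. Comparisons of 24 h with 0 h and of 72 h with 6 h thus draw both sides from the same sets, though the main fits held no term for set. Set and time cannot be told apart when 6 or 72 h is compared with 0 or 24 h.

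miR-34a is transcribed from its own gene and is a direct target of the tumour suppressor p53. Its mature strand pairs through its seed with messages for cell cycle drivers such as cyclins, CDK4, CDK6 and MET, and with the deacetylase SIRT1, and it is known as a brake on growth. After PHx the remaining hepatocytes leave quiescence, pass through DNA synthesis and division and then stop, so a miRNA that restrains the cycle is of interest at the late end of this course.

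The mature sequences that carry this seed are shown so that miR-34a can be told from the other miRNAs that would read the same target sites. They were taken from RefSeq (GRCr8), and capitals mark the seed, bases 2 to 8.
rno-miR-34a-5p: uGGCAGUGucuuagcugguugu
rno-miR-34c-5p: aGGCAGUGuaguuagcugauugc
rno-miR-449a-5p: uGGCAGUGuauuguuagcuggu
In the rat reference 5 of 724 mature miRNAs shared this seed, the other two being miR-34b-5p and miR-449c-5p. Read from the 5′ end without gaps, miR-34c-5p matched miR-34a-5p at 11 of 22 positions, against 15 of 22 for miR-449a-5p, the seed included. Such a count breaks down after an inserted base. miR-34c-5p, at 23 bases, and miR-449a-5p each share with miR-34a-5p a run of bases beyond the seed that lies further along. The counts therefore do not rank the likeness of these sequences outside the seed. Of the 5, only miR-34a and miR-34c had a row in the table. The row gives no arm, and it is taken here as the 5p strand. Mature miR-34a lies at chr5:165815971-165815992 on the plus strand (GRCr8). Its hairpin of 102 bases lies within the long noncoding RNA gene LOC103692514, and the next protein-coding gene is Gpr157, 17598 bases away.

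miR-34a was a dim probe, and this bounds every value that follows. Counts recovered from the deposited log2 CPM, which are counts scaled to library size on a log2 scale, ran from 15 to 134 with a median of 43, in libraries of 58168 to 267582 counts. By count it held a median rank of 113.5 among the 143 miRNAs. The pooled SD of miR-34a within groups was 0.30 on the log2 scale, and counting error alone would give 0.23. As no negative-control probes were used here, 5 miRNAs known from other tissues served as a yardstick for a probe with little target in liver, and they were chosen after their counts were seen: miR-206 and miR-208b-3p of muscle and heart, miR-124 of neurons, and miR-741-3p and miR-743b of testis. The miR-34a count exceeded their median in 0 of 18 animals at 0 h and 0 of 6 at 6 h. It exceeded that median in 15 of 18 animals at 24 h and 6 of 6 at 72 h, and it exceeded all 5 of them in 8 of 18 and 5 of 6. Before PHx miR-34a thus gave no count above the median of this yardstick, and it often lay below it. As the 5 miRNAs were chosen after their counts were seen, they do not fix the floor of the assay. Whether miR-34a was above that floor at 0 h cannot be told here. The fold changes below are those of the deposited values, any background signal included.

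**Figure D1:**
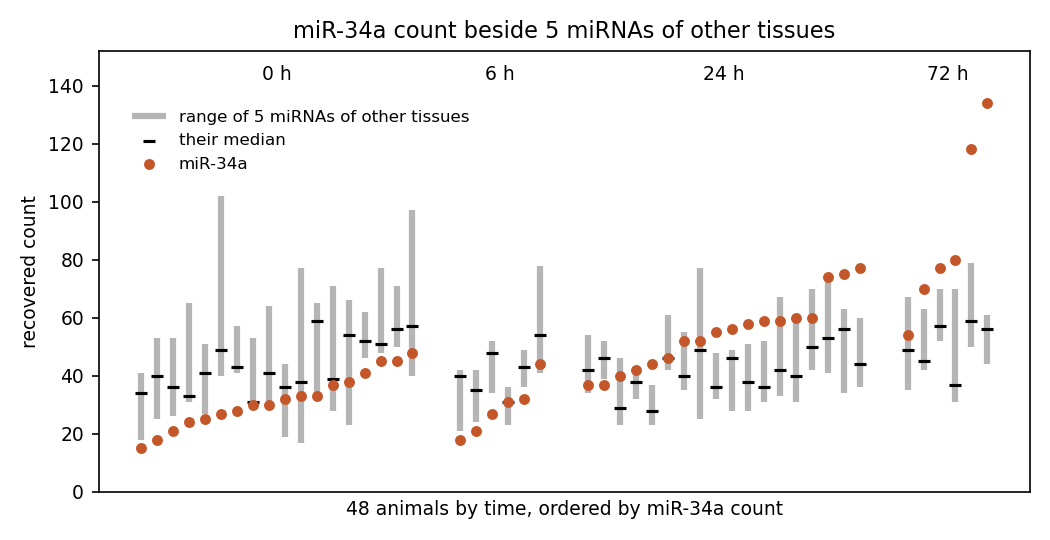
Recovered counts of miR-34a (orange points) in each of the 48 animals, grouped by hours after PHx and ordered by count within a time, beside the range (grey bars) and median (black ticks) of 5 miRNAs of other tissues in the same library. At 0 and 6 h no animal lies above the tick, and at 72 h all 6 do, reaching 134 counts.

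miR-34a rose after PHx, late rather than early, and reached its highest group mean in EtOH-fed animals at 72 h. Without treatment, CHO-fed animals had a log2 CPM of miR-34a of 7.59, 7.93 and 7.58 at 0 h and of 8.24, 7.58 and 7.97 at 6 h. It was 8.49, 8.81 and 7.81 at 24 h and 8.67, 8.29 and 8.52 at 72 h. The 6 h and 24 h animals overlapped those at 0 h, through 1 animal at 24 h, and the 72 h animals all lay above them. EtOH-fed animals had 7.66, 7.94 and 7.80 at 0 h and 8.001, 7.84 and 8.11 at 6 h. It was 8.20, 8.70 and 8.76 at 24 h and 9.28, 9.05 and 8.97 at 72 h. Here the 6 h animals overlapped those at 0 h, the 24 h animals all lay above 0 h, and the 72 h animals all lay above 24 h. Such a lack of overlap was common, as it held for 30.8% and 32.2% of all miRNAs in these EtOH comparisons and for 35% in CHO-fed animals at 72 h against 0 h.

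**Figure D2:**
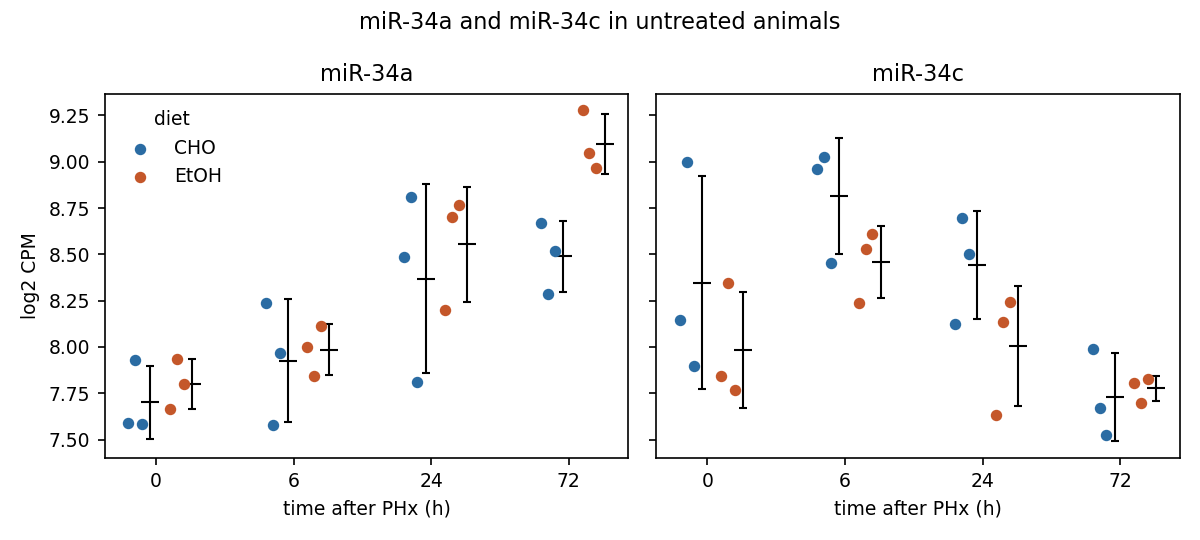
Log2 CPM of miR-34a (left) and of miR-34c, which shares its seed (right), in untreated CHO-fed (blue) and EtOH-fed (orange) animals at each hour after PHx; points are animals and black ticks with bars are mean and SD of 3. miR-34a climbs to 9.10 in EtOH-fed animals at 72 h, and miR-34c ends at or below its 0 h mean on both diets.

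Taken by diet, the change of miR-34a by 72 h passed the test on both. In EtOH-fed animals it rose by 1.30 on the log2 scale (SE 0.22, n = 3 per group, limma adjusted p = 0.000823), which is 2.46-fold with a 95% confidence interval of 1.79 to 3.38, and this was the smallest p of the 143 miRNAs, of which 18.2% were called. In CHO-fed animals it rose by 0.79 (SE 0.22, limma adjusted p = 0.0163), or 1.73-fold, in a comparison where 18.2% of miRNAs were also called. The CHO call was lost without the 0 h animal at 7.59 (0.73, adjusted p = 0.0718), without the 72 h animal at 8.67 (0.70, 0.0701) or without that at 8.52 (0.76, 0.0613), and it was lost when libraries were scaled by total count alone (0.49, adjusted p = 0.116). The EtOH call held without each animal in turn and under all 11 other settings tried, with changes of 1.14 to 1.51.

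At 24 h the same comparison did not pass the test on either diet with 3 animals per group. On CHO the difference was 0.67 (limma adjusted p = 0.0747) and on EtOH 0.75 (limma adjusted p = 0.0707), and 1.4% of miRNAs were called in each. The CHO comparison rested on 1 animal, since without the 24 h animal at 7.81 it became 0.95 (adjusted p = 0.0171). At 6 h the difference was 0.23 in CHO-fed animals (95% confidence interval -0.23 to 0.69, limma adjusted p = 0.48, 2.1% of miRNAs called) and 0.19 in EtOH-fed animals (-0.27 to 0.65, 0.535, 11.2% called). Rises of up to 1.61-fold on CHO and 1.56-fold on EtOH therefore lay within the intervals at 6 h.

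Averaged over the diets, miR-34a was followed through the course with 6 animals per time, and all 3 comparisons share the 0 h animals. The change was 0.21 at 6 h (SE 0.16, limma adjusted p = 0.273, 24.5% of miRNAs called). It rose by 0.71 at 24 h (SE 0.16, limma adjusted p = 0.00527, 20.3% called), and by 1.04 at 72 h (SE 0.16, limma adjusted p = 4.02e-05, 35.7% called). The 72 h value ranked the second smallest p of the table. An exact permutation test within diets (two-sided) gave p = 0.105 at 6 h, 0.01 at 24 h and 0.005 at 72 h, and 0.005 is the smallest that this design allows. F tests over the 3 times were called in CHO-fed animals (F = 5.58, limma adjusted p = 0.0261, 32.9% called) and in EtOH-fed animals (F = 13.996, limma adjusted p = 0.000642, 39.9% called). The CHO call by F was lost without either of 2 animals at 0 h (7.59 or 7.58) or of 2 at 72 h (8.67 or 8.52).

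Within set 4, which holds both the 6 h and the 72 h animals, miR-34a was again higher at the later time. It rose by 1.11 in EtOH-fed animals (SE 0.22, limma adjusted p = 0.000859, 37.1% of miRNAs called), where all 3 animals at 72 h lay above all 3 at 6 h, and 47.6% of miRNAs did not overlap. In CHO-fed animals these times also did not overlap, as for 44.1% of miRNAs, but the difference of 0.56 (SE 0.22, 95% confidence interval 0.10 to 1.02) had a limma adjusted p of 0.0576, with 30.8% called. Over both diets it rose by 0.84 (SE 0.16, limma adjusted p = 0.00022, 46.9% called; exact permutation p = 0.005). From 24 to 72 h, which again sets set 4 against sets 1 to 3, the difference was 0.12 in CHO-fed animals (limma adjusted p = 0.956, 2.1% called) and 0.54 in EtOH-fed animals (0.161, 4.9% called), and neither passed.

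The 72 h libraries were deeper, at 163533 to 267582 counts against 58168 to 205241 at 0 h, and depth bears on a dim probe. Within groups the log2 count of miR-34a rose by 0.64 per unit of log2 total, against a median of 0.95 over all miRNAs. For the 5 miRNAs of other tissues, whose slopes were 0.41 to 0.94, the median change at 72 h over both diets was -0.28. With log10 of the total count as a covariate the rise of miR-34a by 72 h was 1.23, with libraries scaled to those 5 miRNAs it was 1.30, and with scaling by total count alone it was 0.81, each called with a limma adjusted p of at most 0.000673. The part of depth in the rise was not tested further. Tissue was whole liver, so fewer cells of a type and less RNA per cell cannot be told apart.

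The 18 animals at 0 h and the 18 at 24 h, on both diets and under all 3 treatments, gave the most replicated comparison for miR-34a. In animals given saline its log2 CPM was 8.03, 7.53 and 7.64 at 0 h and 8.30, 8.32 and 8.08 at 24 h on CHO. On EtOH it was 7.91, 6.95 and 7.40 at 0 h and 8.53, 8.10 and 8.52 at 24 h. Saline animals at 24 h all lay above those at 0 h of their diet, where 25.9% (CHO) and 29.4% (EtOH) of all miRNAs did not overlap. In animals given AM21 the values were 7.58, 8.24 and 7.18 at 0 h and 8.47, 8.81 and 8.55 at 24 h on CHO. On EtOH they were 7.47, 8.21 and 7.80 at 0 h and 8.43, 8.49 and 8.38 at 24 h. Again no AM21 animal at 24 h fell to the level of one at 0 h on the same diet, and 26.6% (CHO) and 24.5% (EtOH) of miRNAs did not overlap.

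**Figure D3:**
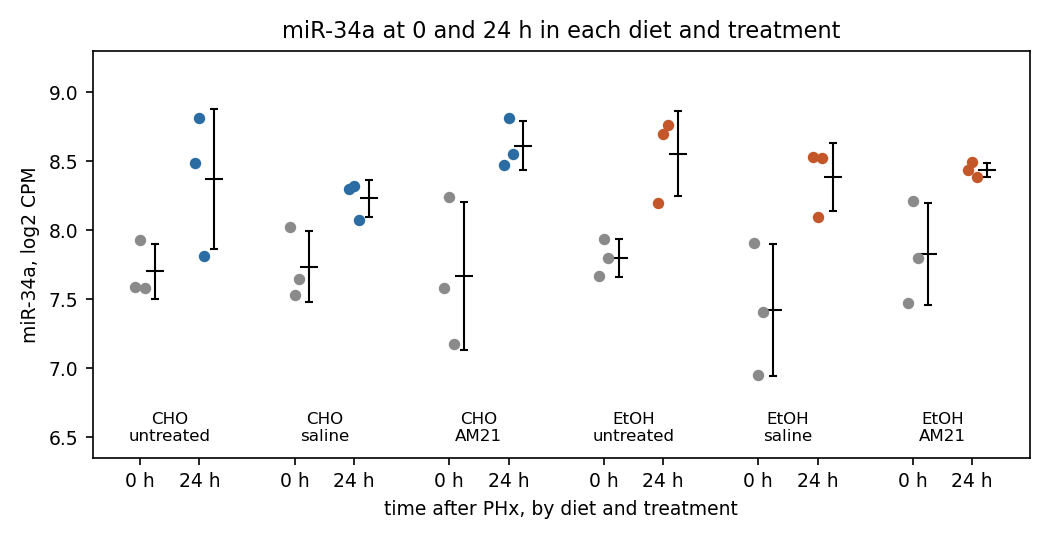
Log2 CPM of miR-34a at 0 h (grey) and 24 h (blue, CHO; orange, EtOH) after PHx in untreated, saline and AM21 animals; points are animals and black ticks with bars are mean and SD of 3. The 24 h mean is above the 0 h mean in all 6 pairs of groups, and the animals overlap in 1 pair, untreated CHO.

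Over these 36 animals miR-34a rose by 0.74 from 0 to 24 h (SE 0.10, limma adjusted p = 2.55e-06, exact permutation p within diet and treatment = 9.38e-08), or 1.67-fold with a 95% confidence interval of 1.44 to 1.94. In this comparison 51.7% of all miRNAs were called, so a call by itself was common. Each of sets 1 to 3 holds 1 animal of every group, and the mean change of miR-34a within a set was 0.70 in set 1, 0.74 in set 2 and 0.79 in set 3. It rose by 0.70 on CHO (limma adjusted p = 0.000573, 35% of miRNAs called) and by 0.78 on EtOH (0.000554, 19.6% called). The difference between the diets in this change was 0.07 (95% confidence interval -0.36 to 0.50, limma adjusted p = 0.918, 0% called, 17 miRNAs at an unadjusted p under 0.05).

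The rise of miR-34a by 24 h was found under each treatment. Untreated animals rose by 0.71 (limma adjusted p = 0.00849, 17.5% of miRNAs called), saline animals by 0.73 (0.0102, 9.79% called) and AM21 animals by 0.78 (0.00603, 14% called). Scaling by total count alone left the AM21 call and ended the other two. AM21 animals differed from untreated and saline animals together by 0.11 in miR-34a (SE 0.11, 95% confidence interval -0.12 to 0.34, limma adjusted p = 0.551, 5.59% called). The difference was 0.08 at 0 h (-0.24 to 0.40, adjusted p = 0.868, 4.2% called) and 0.14 at 24 h (-0.18 to 0.46, adjusted p = 0.712, 2.8% called). AM21 by time came to 0.06 (-0.40 to 0.51, adjusted p = 0.998, 0% called, 4 miRNAs at an unadjusted p under 0.05). An effect of the miR-21 inhibitor on miR-34a of up to 1.26-fold averaged over times and diets lay within the interval. Saline animals differed from untreated animals by -0.16 (-0.43 to 0.10, adjusted p = 0.971, 1.4% called).

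Diet was compared at each time, and no difference in miR-34a between EtOH-fed and CHO-fed animals passed the test. In untreated animals EtOH minus CHO was 0.10 at 0 h (95% confidence interval -0.36 to 0.56, limma adjusted p = 0.858, 2.1% of miRNAs called), 0.06 at 6 h (-0.40 to 0.52, 0.957, 0% called, 13 miRNAs at an unadjusted p under 0.05) and 0.19 at 24 h (-0.27 to 0.64, 0.851, 2.1% called). At 72 h all 3 EtOH-fed animals lay above all 3 CHO-fed animals (18.2% of all miRNAs did not overlap here), with a difference of 0.61 (SE 0.22, 0.15 to 1.07), or 1.52-fold. Its unadjusted p by limma was 0.0119 and its adjusted p 0.274, and 0% of miRNAs were called at this time (14 at an unadjusted p under 0.05). Whether the change by 72 h differed between the diets was tested directly, at 0.51 (SE 0.31, -0.14 to 1.16, limma adjusted p = 0.827, 0% called), and the F test of diet by time gave 1.29 (adjusted p = 1.00, 0% called), each with 8 miRNAs at an unadjusted p under 0.05. Over all treatments EtOH minus CHO in miR-34a was -0.02 at 0 h (-0.32 to 0.28, adjusted p = 0.949, 14.7% called) and 0.05 at 24 h (-0.25 to 0.36, adjusted p = 0.87, 1.4% called).

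**Figure D4:**
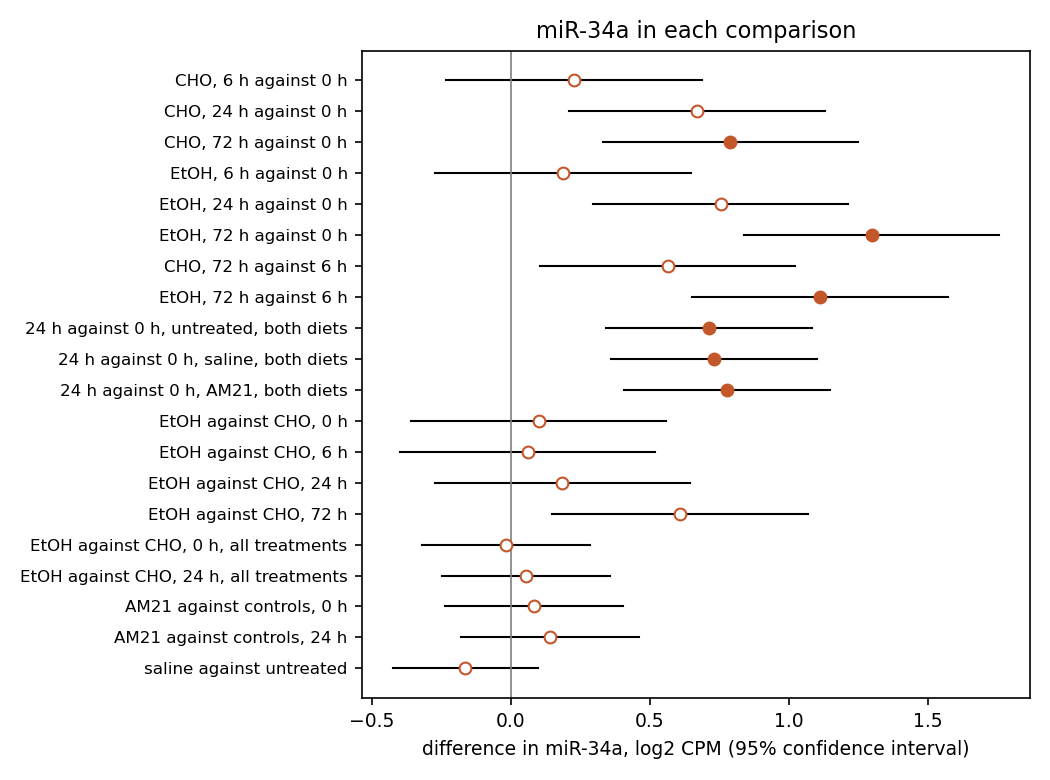
Differences in miR-34a (log2 CPM, first group minus second) with 95% confidence intervals from limma; filled points passed an adjusted p of 0.05 and open points did not. Time comparisons lie to the right of 0, with EtOH at 72 h against 0 h farthest at 1.30. Among them the intervals for 6 h against 0 h cross 0 on both diets. The intervals for diet at 0, 6 and 24 h, AM21 and saline also cross 0.

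Ordered by mean log2 CPM of miR-34a, the 16 groups were led by untreated EtOH at 72 h (9.10 ± 0.16, SD, n = 3), and the gap of 0.49 to the next group was larger than either SD. Positions 2 to 8 held untreated CHO at 72 h (8.49 ± 0.19) and the 6 groups at 24 h, from CHO AM21 (8.61 ± 0.18) to CHO saline (8.23 ± 0.13). Neighbours among them did not differ beyond their spread. A gap of 0.24 then separated them from untreated EtOH at 6 h (7.99 ± 0.14). Both 6 h groups and all 6 groups at 0 h filled the lower positions, down to EtOH saline at 0 h (7.42 ± 0.48).

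miR-34c, which would read the same seed sites, ran differently from miR-34a. Its counts were 28 to 67 in the 48 animals, within the span of the miRNAs of other tissues, so it too was near the level of that yardstick. Over both diets miR-34c differed from 0 h by 0.47 at 6 h (limma adjusted p = 0.051), 0.06 at 24 h (0.854) and -0.41 at 72 h (95% confidence interval -0.78 to -0.05, 0.0667). The difference miR-34a minus miR-34c within an animal rose by 1.46 from 0 to 72 h (exact permutation p = 0.005) and by 0.63 from 0 to 24 h over the 36 animals (exact permutation p = 1.57e-05). Within set 4, from 6 to 72 h, miR-34c fell by 0.88 (SE 0.18, limma adjusted p = 0.000329, 46.9% of miRNAs called). Its F test over the times was called on CHO (F = 6.54, limma adjusted p = 0.0162, 32.9% called) and not on EtOH (F = 2.68, 0.128, 39.9% called). The median change of the miRNAs of other tissues from 0 to 72 h was also negative. The part of such a drift in the falls of miR-34c, and in its difference from miR-34a, was not tested.

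Other miRNAs tied to p53 were set beside miR-34a. Of 12 listed as induced or processed through p53, 8 were measured, and by 72 h over both diets miR-34a and miR-16 rose, miR-145 fell and the other 5 did not pass, against 26 that rose and 25 that fell of all 143 miRNAs. miR-16, which targets cyclins and is also abundant in red blood cells, rose by 1.31 (limma adjusted p = 5.15e-06), and miR-145, typical of smooth muscle and mesenchymal cells, fell by 0.73 (0.000316). Without miR-34a the median change of the 7 others was 0.13, and that of all miRNAs 0.03. miR-192 and miR-194, abundant in liver, differed by 0.18 each (adjusted p = 0.41 and 0.398). By 24 h over the 36 animals miR-143 rose as well, by 0.22 (limma adjusted p = 0.0201), and miR-16 rose by 0.37 (0.000568) while miR-145 fell by 0.27 (0.00355). With miR-34a this made 4 of 8 called, near the 51.7% of all miRNAs.

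miRNAs known to act on p53 itself were read against the 35.7% of all miRNAs called at 72 h and the 51.7% called at 24 h over the 36 animals. Of 4 that repress p53, 0 passed in limma by 72 h. At an unadjusted p under 0.05 by limma there were 2, as for 70 of all 143 miRNAs. The count of 0 became 2 with voom weights and with scaling to the 5 miRNAs of other tissues. It became 1 with total count alone, with all 48 animals fitted and with saline animals added. By 24 h over the 36 animals miR-30d rose by 0.20 (limma adjusted p = 0.0424) and miR-504 by 0.32 (0.00609). That count of 2 became 1 under each of 5 other settings (RLE size factors, the 100 highest probes, total count alone, total count as a covariate and the 5 miRNAs of other tissues). Of 4 that raise p53 activity, by 72 h miR-122, the main liver miRNA, rose by 0.38 (limma adjusted p = 0.0234) and miR-29a fell by 0.50 (0.00113). By 24 h miR-122 rose by 0.30 (0.00493) and miR-29b by 0.35 (0.027). The count of 2 at 72 h became 1 with the 100 highest probes, total count alone, total count as a covariate and the 5 miRNAs of other tissues. At 24 h it became 1 with total count as a covariate.

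Lists linked to growth were described by the same counts. Of 16 miRNAs counted as brakes on the cell cycle, miR-34a apart, by 72 h miR-15b (0.96, limma adjusted p = 4.02e-05) and miR-16 rose and miR-101a fell (by 0.52, limma adjusted p = 0.05, just under the threshold), and the 7 let-7 members did not pass. These 3 of 16 compare with 35.7% of all miRNAs called. By 24 h over the 36 animals miR-16 and miR-195 (0.30, 0.0212) rose, and let-7c (-0.20, 0.0328) and miR-26a (-0.42, 0.00378) fell, 4 of 16 where 51.7% of all miRNAs were called. Of 8 measured growth-promoting miRNAs, 8 rose by 24 h with a median of 0.57, against 42 of all 143 that rose and a median of 0.05. The largest was miR-21, known as a promoter of growth and the target of AM21, at 1.06 (limma adjusted p = 0.000585), followed by miR-19a and miR-19b of the miR-17-92 cluster at 0.91 and 0.87. By 72 h 5 of the 8 rose, against 26 of all 143, with a median of 0.67 against 0.03. With scaling by total count alone 3 were called, and 2 with total count as a covariate, and the share of all miRNAs called under these settings is not given here. miR-34a and all 8 of these promoters of growth thus rose by 24 h over the 36 animals, and by 72 h miR-34a and 5 of the 8 did. The list was chosen with earlier results of these data known, and several of its members come from shared clusters. The 8 are therefore neither an independent check nor 8 separate cases.

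The miRNAs whose 16 group means ran most like those of miR-34a were miR-93 (Pearson r = 0.92), miR-223 (0.83), miR-106b (0.82), miR-17-5p (0.78) and miR-16 (0.75). miR-93 and miR-106b come from one cluster and miR-17-5p from its paralogue. Lowest were miR-23b (-0.86), miR-100 (-0.86) and miR-181a (-0.81). The 16 points share sets, depth and the time after PHx, so these values describe the pattern of groups alone. Among animals of the same group the r with miR-34a was 0.14 for miR-93, 0.11 for miR-223 and 0.0918 for miR-106b. It kept its sign at -0.57 for miR-23b, the lowest of all miRNAs, and -0.21 for miR-100, and it turned to -0.12 for miR-17-5p, -0.36 for miR-16 and 0.27 for miR-181a. By 72 h over both diets miR-93 rose by 0.69 (limma adjusted p = 0.000734) and miR-23b fell by 0.85 (4.02e-05). In size the rise of miR-34a by 72 h, at 1.04, was above that of miR-93 and below that of miR-16.

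**Figure D5:**
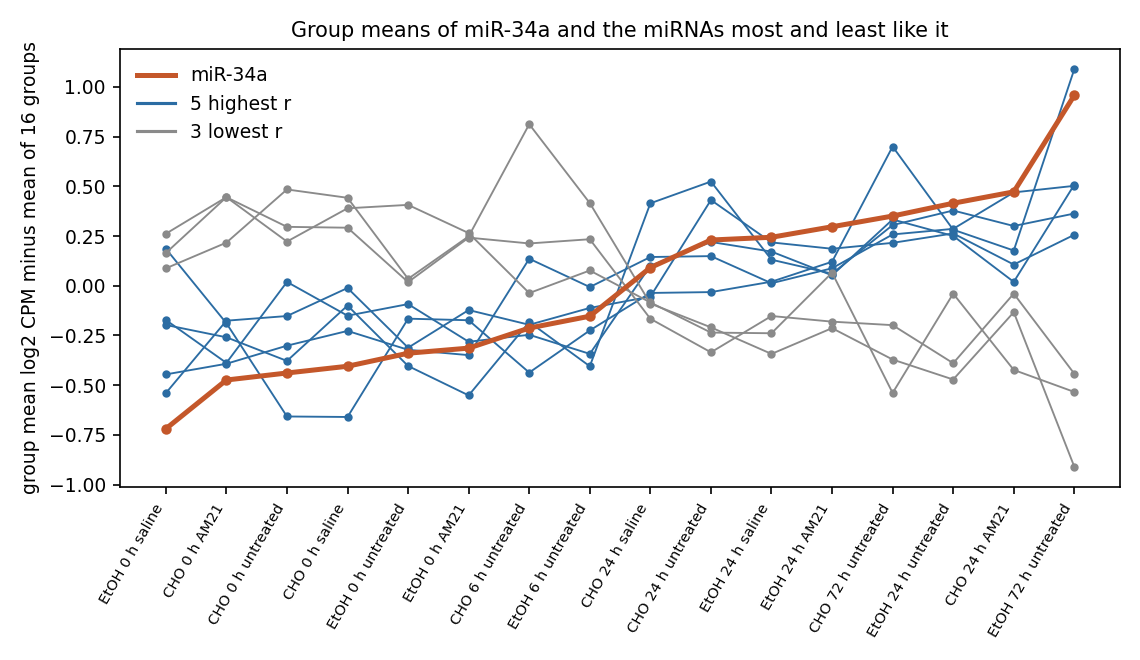
Group means of log2 CPM, each miRNA centred on its mean over 16 groups, for miR-34a (orange), the 5 miRNAs with the highest r to it (blue) and the 3 with the lowest (grey), with groups ordered by miR-34a. The orange line ends at the EtOH group at 72 h, and the grey lines run the other way across the same groups.

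Markers of the cell types in liver were read beside miR-34a. Ranges are of the log2 of the CPM summed over the miRNAs of a type, in which the most abundant member weighs most. Hepatocyte miRNAs (miR-122, miR-192 and miR-194; 3 of 3 measured) ran from 18.5 to 19.4 in untreated animals at 0 h and 19.1 to 19.6 at 72 h. Red blood cell miRNAs (miR-451 and miR-144; 2 of 2 measured) ran from 10.4 to 11.9 at 0 h and 9.10 to 10.9 at 72 h, and both fell by 72 h, by 1.31 and 1.16 (limma adjusted p = 5.66e-05 and 0.00194). Leukocyte miRNAs (miR-223, miR-142-3p and miR-150; 3 of 3 measured) ran from 11.35 to 11.7 at 0 h and 11.34 to 11.7 at 72 h. Of these, miR-150 of lymphocytes was lower by 72 h (-0.70, limma adjusted p = 0.00194). miR-223 of myeloid cells was not called by 72 h over both diets (0.47, limma adjusted p = 0.058). It was higher by 24 h over the 36 animals (0.41, 0.0011), where 51.7% of all miRNAs were called. The sum over mesenchymal miRNAs (4 of 5 measured) was 14.1 to 14.4 at 0 h and 13.6 to 14.4 at 72 h, and endothelial miR-126 (1 of 1) was 14.1 to 15.5 and 14.6 to 15.2. No marker was at 0 in any group, and the part of these cells in the rise of miR-34a was not tested.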

How the data were processed

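miRNAs of whole liver from 48 rats in 16 groups of 3 were measured on the NanoString nCounter. The authors scaled the counts by TMM, transformed them with voom and deposited a table of log2 CPM with 143 miRNAs. The filter that kept them is not given in the sources used here. Whole counts were recovered from these values with the voom pseudocount of 0.5. limma 3.58.1 (R 4.3.3; lmFit, then eBayes) was run on the deposited values with a mean for each group, in the 24 untreated animals or the 36 animals at 0 and 24 h. Benjamini-Hochberg adjustment ran over all 143 miRNAs within each comparison, miRNAs were called under 0.05, and intervals are 95% confidence intervals. Single values were also tested by exact permutation of animals between the sides of a comparison, within strata of the other labels such as diet and treatment (two-sided). The precision is that of 3 animals and of counts of 15 to 134 for miR-34a. The labels do not say whether the animals of a group were handled apart, so p-values measure the spread between these animals. Only the limma fits were tried on simulated data, which were log2 values with independent normal noise. Low counts, background, depth and sets were not simulated, nor were the recovery of counts and the permutation tests tried in this way. The miRNA, the lists and the markers were chosen with earlier results of these data known. Named were miR-34a, its seed mates in the table, the 5 miRNAs with the highest and the 3 with the lowest r over group means, list members that were called or had the smallest p, and the markers. The comparison of miR-34a with miR-34c within an animal and the 5 miRNAs of other tissues were added after the data were seen. Alternatives changed the scaling, the pseudocount, a filter on low counts, weights, covariates, the animals fitted and the set as a block, and left out each animal in turn. Plots used matplotlib 3.10.9 (Python 3.11.15).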

Additional observations from a re-analysis of the deposited data

How the results depend on the processing

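For the 36 comparisons of miR-34a, 358 of 381 values under other settings and 475 of 504 values without 1 animal kept their direction and their side of the threshold. Counts of 15 to 134 limit the precision of all of them. Scaling by total count alone moved the median of all miRNAs at 72 h over both diets by -0.18, and gave for miR-34a 0.49 for CHO at 72 h against 0 h, F = 2.30 for CHO, 0.56 and 0.53 for untreated and saline animals at 24 h (all no longer called), and -0.16 and -0.0597 for EtOH minus CHO at 0 and 6 h and -0.0373 for AM21 at 0 h (reversed). A fit of the diet's groups alone gave 0.79 (adjusted p = 0.0544) and F = 4.23 for CHO, both no longer called, and 0.75 for EtOH at 24 h, now called, and scaling to the 100 highest probes gave F = 3.62 for CHO, no longer called. With total count as a covariate the 24 h changes were called on CHO (0.79) and EtOH (0.81), diet by time at 24 h turned to -0.15, AM21 by time to -0.0488 and EtOH minus CHO at 0 h over all treatments to 0.25. The latter was 0.0021 with RLE size factors and 0.0817 with scaling to the 5 miRNAs of other tissues, an alternative chosen after seeing the data, which also gave 0.97 for CHO at 24 h and 1.04 for CHO at 72 h against 6 h, both called, and 0.68 for saline animals at 24 h, no longer called. With saline animals added, the 24 h change was 0.58 on CHO and 0.86 on EtOH, both called. Within groups r turned to -0.12 for miR-17-5p, -0.36 for miR-16 and 0.27 for miR-181a. Of the p53-induced list, 1 member was called at 72 h with scaling to the 5 miRNAs of other tissues, and of the brakes 5 were called at 72 h and 9 at 24 h with total count alone. The share of all miRNAs called under these settings is not given here. Counts of list members under other settings are therefore not read as results about a list. The causes were not tested.

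Without 1 animal, the lowest and highest values were 0.45 and 0.95 for CHO at 24 h, 0.70 and 0.90 for CHO at 72 h, 0.39 and 0.72 for CHO at 72 h against 6 h, -0.16 and 0.34 for CHO at 72 h against 24 h, and 4.12 and 9.62 for F in CHO. For EtOH minus CHO they were -0.12 and 0.21 at 6 h, -0.0932 and 0.41 at 24 h, -0.10 and 0.0772 at 0 h over all treatments and -0.0387 and 0.13 at 24 h over all treatments. They were -0.0232 and 0.15 for diet by time at 24 h, -0.0615 and 0.20 for AM21 at 0 h and -0.0642 and 0.20 for AM21 by time.

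Animals with the same set number deviated together (r above 0.1 in all 3 pairs) in 5 of 24 pairs of groups, so the number was not taken to pair the samples. The strongest case was untreated CHO against untreated EtOH at 0 h, with r of 0.52, 0.79 and 0.65 in sets 1, 2 and 3. The rats were pair-fed, and the labels do not name the pairs. The main fits and permutation tests took these 0 h animals as independent, which may not hold. With set as a replicate block, 19 of 19 results for miR-34a kept their call, the rise from 0 to 24 h over 36 animals being 0.74.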
